A study of Danio rerio with 6 samples.

Results

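Matrix glycoproteins and proteoglycans are the non-collagen proteins of the extracellular matrix. Laminins, nidogens, perlecan and agrin build the basement membrane, the sheet on which endothelial cells rest. Fibronectins, fibulins, fibrillins and elastin form fibres between cells, whereas hyaluronan and the versican and aggrecan proteoglycans that bind to it form a hydrated gel. In the injured zebrafish heart a transient matrix of this kind is laid down by endocardial, epicardial and fibroblast cells before the scar is resolved, and hyaluronan, fibronectin and periostin are among its known components.

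The members were taken by gene symbol, from a fixed pattern of family names, and by a mean value above 5 over all 6 libraries. Of the 17835 genes listed, 75 matched the pattern and 74 had a mean above 5, out of 16383 genes that did so and were tested. The gene just inside the limit was matn3a, at 2, 9 and 10 in myd88-/- pools, against 12, 3 and 2 in myd88+/+ pools, and the one matching symbol outside it was lamb2l, at 2, 2 and 10 in myd88-/- pools, against 4, 2 and 0 in myd88+/+ pools. All 74 members had reads in every library.

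The libraries came from endocardial cells, the inner lining of the heart, sorted as krt4:EGFP+ cells from cryoinjured ventricles of myd88-/- and myd88+/+ zebrafish at 96 hours post cryoinjury (hpci). MyD88 is the adaptor through which most Toll-like receptors and interleukin-1 receptors signal, and the mutant line carries the hu3568 allele in all cells, so that the gene is altered outside the endocardium as well. Both genotypes carried the enhancer trap ET(krt4:EGFP)sqet33-1A, in which EGFP marks the endocardium, and both were injured. Each genotype had 3 libraries, each from a pool of 4 ventricles, so that pools are the replicates. The p-values set a difference against the spread between pools, which limma estimates for each gene partly from other genes of similar level. The comparison asks which matrix genes differ in the mutant endocardium.

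Values are taken to be normalized read counts, which are read counts divided by a size factor of each library and rounded. They sum to between 11136966 and 11847536 per library. They are not scaled to transcript length, so that levels are compared between libraries and not between genes. myd88 itself had 817, 575 and 849 normalized reads in myd88-/- pools, against 1305, 1149 and 1070 in myd88+/+ pools, which did not overlap, and differed by -0.67 on the log2 scale (limma adjusted p of 0.150). Transcripts of the gene were thus still detected in the mutant.

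All 27 markers of endocardial and endothelial cells were tested, and their summed level was 91583 to 108884 in myd88-/- and 111502 to 121047 in myd88+/+ libraries. This sum follows its abundant genes, and without ramp2 and klf2a it was 67427 to 79784 in myd88-/- and 78638 to 79484 in myd88+/+ libraries. The markers moved in both directions: at an unadjusted limma p under 0.05, 5 were lower in myd88-/- cells (notch1b, kdr, cdh5, klf2b and she) and 6 were higher (tie1, fli1b, erg, etv2, esama and nfatc1), with a median log2 fold change of -0.13. By this p 6.97% of all genes tested were lower and 6.20% higher, so that both shares of these 27 markers were above those of all genes. Markers of epicardial cells and fibroblasts, which make much of the cardiac matrix, were also present: 20 of 23 were tested, with a summed level of 177831 to 197808 in myd88-/- and 173765 to 216134 in myd88+/+ libraries. Of this sum anxa2a and krt8 made up 62.6 to 66.5%. Without them it was 62637 to 66450 in myd88-/- and 64134 to 75071 in myd88+/+ libraries. Fewer cells of a type and less RNA per cell cannot be told apart in such bulk samples. The library myd88-/- replicate 3 stood apart from the rest: 1.63% of all genes tested were more than 2-fold above each other library in it, against 0.0916 to 0.244% for each of the other 5 libraries. Many results that rest on it are given with and without it, and the plot of fold changes draws both fits.

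None of the 74 members was past the criteria of an adjusted p under 0.05 and a change over 1.5-fold (limma on log2(value + 1)), where 115 of all genes, or 0.702%, were. With libraries scaled to equal totals none was either, where 0.604% of all genes were. At an unadjusted p under 0.05, 4 members were lower in myd88-/- cells (hspg2, mfap2, fbn2b and lama1) and 2 were higher (nid2b and thbs1b). Among all genes tested 6.97% were lower and 6.20% were higher by this measure. With equal totals the split was 2 lower (hspg2 and mfap2) and 4 higher (nid2b, thbs1b, gpc1b and gpc4), against 5.32 and 8.73% of all genes.

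The balance of fold changes between higher and lower depended on single libraries. With all libraries the median was -0.09 on the log2 scale, with 43 members lower and 31 higher, or 58.1% lower against 48.9% of all genes, whose median was 0.01. With equal totals the median was -0.03, against 0.07 for all genes. The median of the members turned to 0.03 without myd88-/- replicate 1 (33 lower), to 0.08 without myd88-/- replicate 2 (31 lower) and to 0.03 without myd88+/+ replicate 1 (36 lower). In 30 of the 74 members the sign was the same in all 6 fits that left out 1 library. The genotypes did not overlap in 6 members, of which agrn, hspg2, mfap2, lamc1 and fbn2b were lower and nid2b was higher in myd88-/- libraries, where 8.98 and 9.09% of all genes did not overlap in those directions. By unadjusted p and by overlap, the shares of members were thus below those of all genes in both directions.

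**Figure D1:**
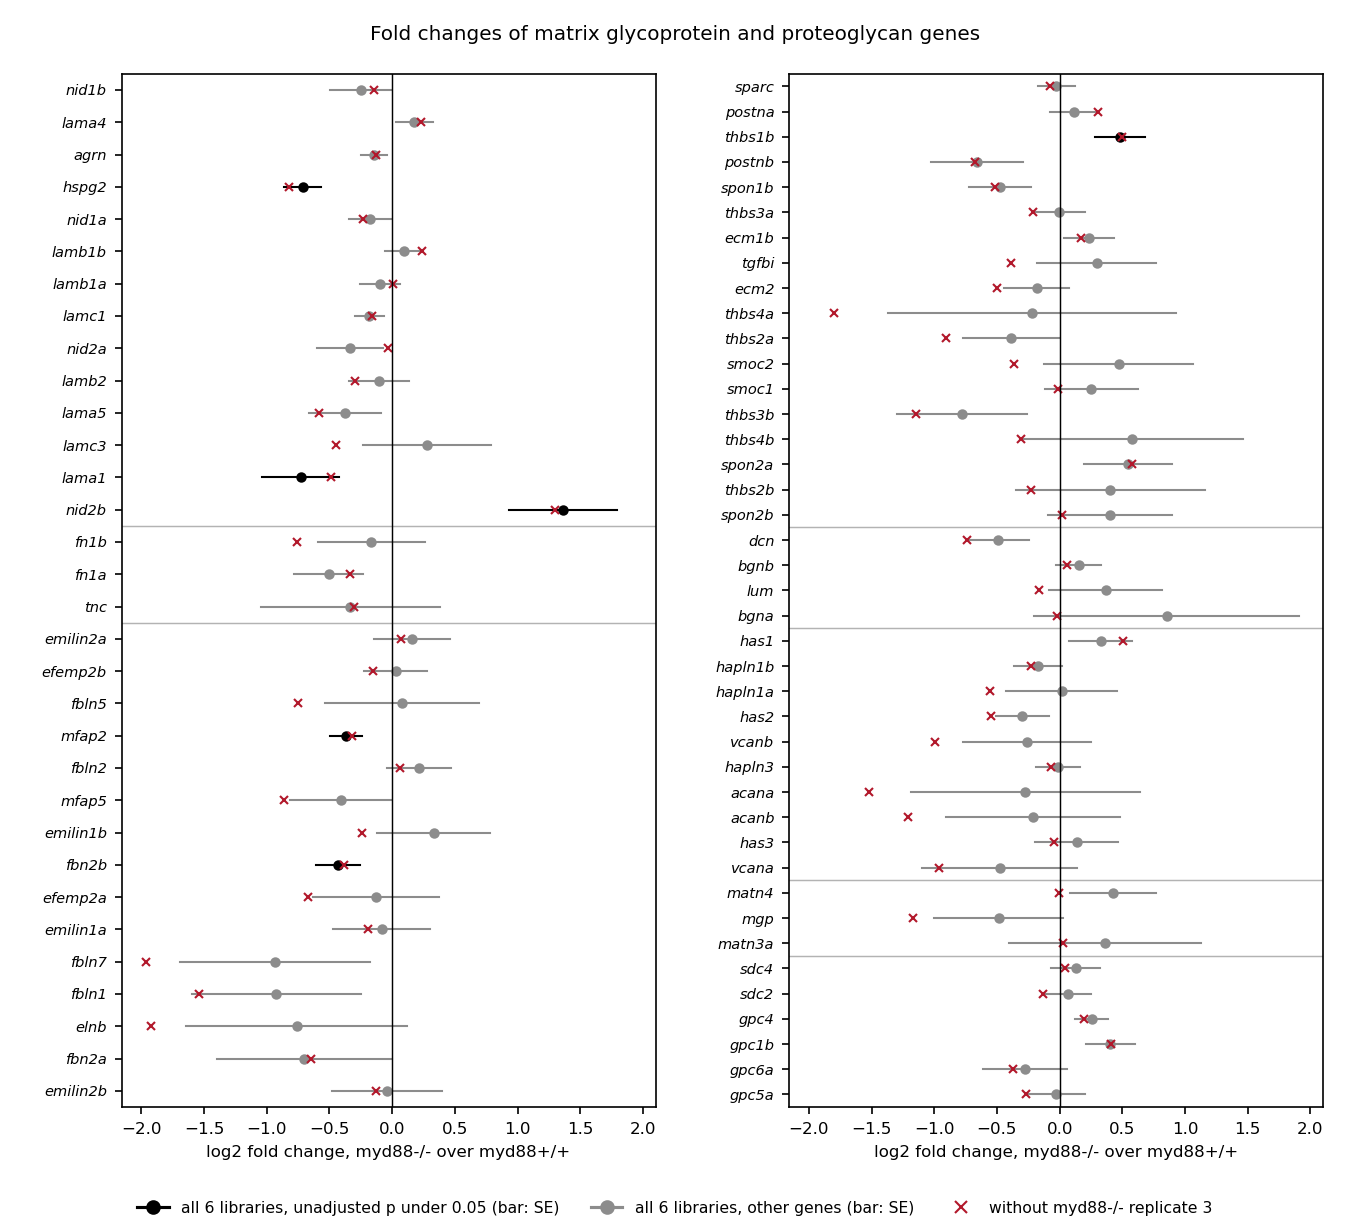
Log2 fold change (myd88-/- over myd88+/+) of 73 of the 74 members, with the SE as a bar, grouped by role from basement membrane genes (top left) to glypicans and syndecans (bottom right). Black points are the 6 genes with an unadjusted p under 0.05, and red crosses are the fit without myd88-/- replicate 3, which lie to the left of the point for most fibulin, thrombospondin, versican and aggrecan genes.

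The plot of fold changes shows that precision differed widely between members. The SE ranged from 0.11 to 1.15 on the log2 scale, 19 members had an SE under 0.2 and 30 had one over 0.4. For 15 members the 95% interval lay within 1.5-fold in both directions, so that a larger change in either direction lay outside the interval.

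Of 15 basement membrane genes 11 were lower and 4 higher, with a median of -0.18. Their median spread within genotypes, 0.24 on the log2 scale, was the smallest of the 8 roles. The clearest difference was in hspg2, which encodes perlecan, the heparan sulfate proteoglycan of basement membranes (ENSDARG00000076564, danRer11 chromosome 23, 26543716 to 26725637, minus strand). It had 1683, 1330 and 1869 normalized reads in myd88-/- pools, against 2834, 2510 and 2601 in myd88+/+ pools. Every mutant library lay below every wild-type library. The mean was 1627 ± 274 in myd88-/- and 2648 ± 167 in myd88+/+ cells (SD, n = 3 each), a log2 difference of -0.71 ± 0.15 (SE) and a 95% interval of -1.05 to -0.38. The limma p was 9.0e-04, or 0.0780 after adjustment, so that hspg2 did not meet the criteria with all libraries. It kept an unadjusted p under 0.05 in 15 of 15 alternatives, with an adjusted p of 0.0284 to 0.284, and it met the criteria without myd88-/- replicate 3, at -0.82 and an adjusted p of 0.0284.

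**Figure D2:**
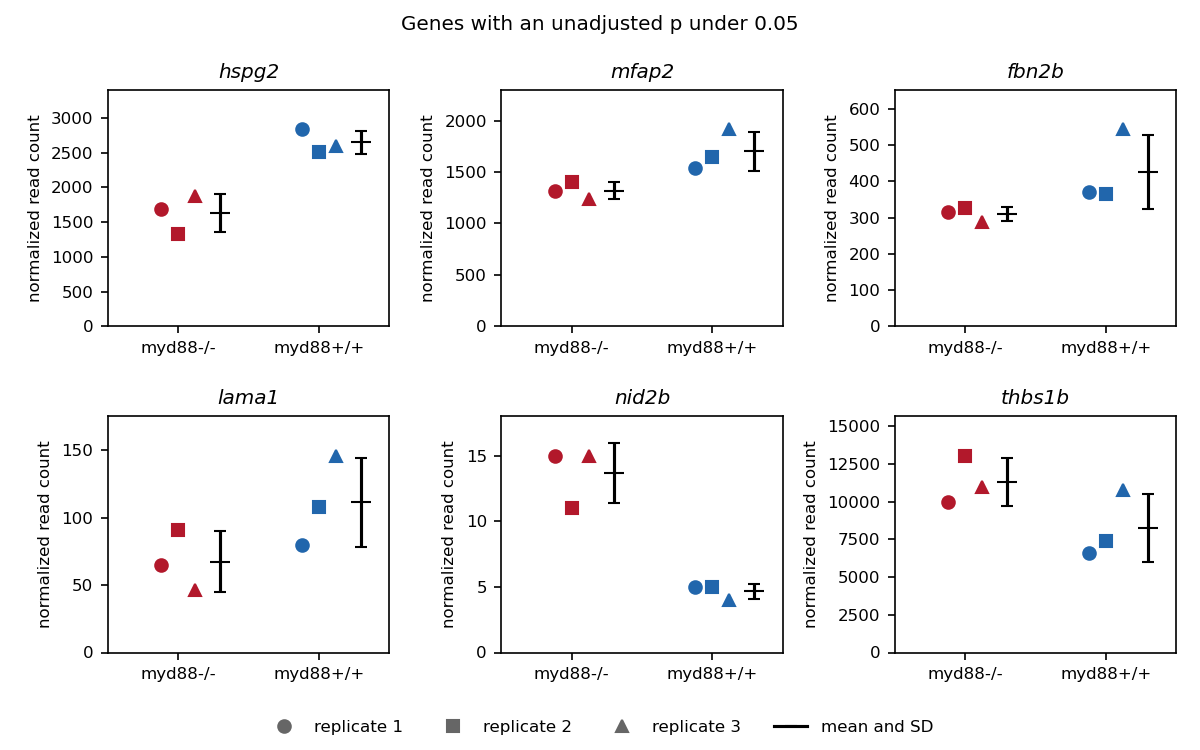
Normalized read counts (linear axis from 0) of the 6 members with an unadjusted p under 0.05, with a symbol for each replicate and the mean and SD (n = 3) beside them. The genotypes do not overlap in hspg2, mfap2, fbn2b and nid2b and do overlap in lama1 and thbs1b.

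The plot of these 6 genes by replicate also shows lama1, the laminin alpha 1 chain of embryonic and some adult basement membranes (chromosome 24, 41690545 to 41784173). It had 65, 91 and 46 normalized reads in myd88-/- pools, against 80, 108 and 146 in myd88+/+ pools, at -0.73 ± 0.31, with a limma p of 0.0419 (0.357 after adjustment). Without myd88-/- replicate 3 the change was -0.49, without myd88+/+ replicate 3 it was -0.51, without both it was -0.27, and the unadjusted p was under 0.05 in 7 of 15 alternatives. One mutant library lay above the lowest wild-type library. It is the only member on chromosome 24, at 21.5 Mb from myd88, so that linkage to the mutant locus and the mutation cannot be told apart for it. nid2b, a nidogen that links laminin to collagen IV (chromosome 20, 9643499 to 9674877), had 15, 11 and 15 normalized reads in myd88-/- pools, against 5, 5 and 4 in myd88+/+ pools. The change was 1.36 ± 0.43 on the log2 scale, with a limma p of 0.0115 (0.225 after adjustment), and the unadjusted p was under 0.05 in 13 of 14 alternatives. Every mutant library lay above every wild-type library, at values that are among the lowest of the set.

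The abundant basement membrane genes showed small differences. nid1b had 4799, 6222 and 4395 normalized reads in myd88-/- pools, against 4282, 5980 and 8642 in myd88+/+ pools, at -0.25 ± 0.25 on the log2 scale. lama4, the laminin alpha chain of endothelial basement membranes, had 3439, 2477 and 2606 in myd88-/- pools, against 2333, 2482 and 2651 in myd88+/+ pools, at 0.18 ± 0.15, or 0.03 without myd88-/- replicate 1. Both genes overlapped between genotypes. Of the genes chosen after their values were seen, agrn, which encodes the heparan sulfate proteoglycan agrin, had 2271, 2230 and 2184 in myd88-/- pools, against 2504, 2495 and 2393 in myd88+/+ pools, at -0.14 ± 0.11, and lamc1, the gamma chain shared by most laminins, had 1379, 1354 and 1304 in myd88-/- pools, against 1504, 1420 and 1661 in myd88+/+ pools, at -0.18 ± 0.12. In these the genotypes did not overlap although the change was small, and neither had an unadjusted limma p under 0.05 (0.209 for agrn and 0.152 for lamc1). The spread of agrn within genotypes was 0.0325 on the log2 scale, below its SE, which limma draws partly from other genes. The other laminin and nidogen genes overlapped, with log2 fold changes of -0.37 for lama5 to 0.28 for lamc3. Without myd88-/- replicate 3, lamc3 lay at -0.45. In 8 of the 15 genes the highest value was in myd88+/+ replicate 3.

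The fibronectin and tenascin genes, which encode adhesive proteins of the provisional wound matrix, numbered 3, and in fn1b and tnc a single library lay far from the others of its genotype. fn1b had 4101, 6197 and 17292 normalized reads in myd88-/- pools, against 8208, 8136 and 9290 in myd88+/+ pools. The change was -0.17 ± 0.43 on the log2 scale (limma adjusted p of 0.904). It was -0.76 ± 0.18 when myd88-/- replicate 3 was left out (adjusted p of 0.0862). fn1b overlaps atic on chromosome 1, and whether strand was used in counting is not stated in the sources used here. fn1a had 2987, 4861 and 2691 in myd88-/- pools, against 4317, 3723 and 6974 in myd88+/+ pools, at -0.51 ± 0.27 and an adjusted p of 0.474. This difference varied with single libraries, from -0.24 without myd88+/+ replicate 3 to -0.77 without myd88-/- replicate 2. It was -0.07 without replicate 3 of either genotype, a fit added after the data were seen. The paralogs differed in which library was highest, and the ratio of fn1b to fn1a was 1.37, 1.27 and 6.43 in myd88-/- pools, against 1.90, 2.19 and 1.33 in myd88+/+ pools. tnc, tenascin C, a protein of wound edges, had 29, 68 and 42 in myd88-/- pools, against 29, 27 and 211 in myd88+/+ pools. The last of these was 3.10 times the next highest value.

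Of the 15 elastic fibre and microfibril genes 10 were lower and 5 higher, with a median of -0.13. mfap2, a glycoprotein of fibrillin microfibrils (chromosome 22, 22888 to 24275), had 1314, 1399 and 1235 normalized reads in myd88-/- pools, against 1540, 1646 and 1914 in myd88+/+ pools. The mean was 1316 ± 82.0 in myd88-/- and 1700 ± 193 in myd88+/+ cells (SD, n = 3 each), at -0.36 ± 0.13, with a limma p of 0.0185 (0.264 after adjustment). fbn2b, a fibrillin, the protein that forms the microfibril itself (chromosome 22, 4524367 to 4649238; a separate gene name table lists its identifier as FBN3), had 316, 326 and 288 in myd88-/- pools, against 370, 364 and 543 in myd88+/+ pools, at -0.43 ± 0.18, with a limma p of 0.0384 (0.348 after adjustment). In neither gene did the genotypes overlap, and both lie on the same chromosome. The unadjusted p was under 0.05 in 13 of 15 alternatives for mfap2 and in 7 of 15 for fbn2b, for which a change of -0.24 was left without myd88+/+ replicate 3.

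The genes with the highest values in this group did not separate the genotypes. emilin2a, of the elastin microfibril interface proteins, had 2963, 1648 and 2655 in myd88-/- pools, against 3280, 1492 and 1910 in myd88+/+ pools, at 0.16 ± 0.30. efemp2b, a fibulin needed for elastic fibre assembly in mammals, had 2297, 1385 and 2588 in myd88-/- pools, against 2438, 2093 and 1519 in myd88+/+ pools, at 0.03 ± 0.25. Fibulins and elastin among the genes chosen after their values were seen were high in one mutant library and low in the other mutant libraries. fbln5, which binds elastin and overlaps trip11, had 778, 826 and 4472 in myd88-/- pools, against 1498, 825 and 1987 in myd88+/+ pools. fbln7 had 14, 15 and 131 in myd88-/- pools, against 85, 65 and 38 in myd88+/+ pools, and elnb, an elastin, had 4, 11 and 86 in myd88-/- pools, against 38, 20 and 30 in myd88+/+ pools. In each gene the mutant values reached below and above all wild-type values. The other 8 members of the group overlapped between genotypes and lay between -0.92 for fbln1 and 0.33 for emilin1b. Without myd88-/- replicate 3, fbln1 lay at -1.54 and emilin1b at -0.24. Of these 8 members, emilin1a and fbn2a overlap another listed gene.

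Matricellular proteins, which signal to cells rather than build fibres, numbered 18, with 8 lower and 10 higher and a median of 0.17. sparc, a collagen-binding protein, had 19909, 23795 and 24255 normalized reads in myd88-/- pools, against 21978, 22676 and 24396 in myd88+/+ pools. The change was -0.03 ± 0.15 with a 95% interval of -0.37 to 0.31, and the sign turned to 0.03 with equal totals. postna, a periostin, had 13222, 15327 and 9470 in myd88-/- pools, against 10131, 12099 and 12390 in myd88+/+ pools, at 0.11 ± 0.19 with an interval of -0.32 to 0.55. The genotypes overlapped in both genes, and both intervals lie within 1.5-fold.

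thbs1b, a thrombospondin 1 gene, whose mammalian product activates latent TGF-beta (chromosome 20, 29036328 to 29052391), was the other gene with a higher value at an unadjusted p under 0.05. It had 9956, 13044 and 10931 normalized reads in myd88-/- pools, against 6591, 7379 and 10784 in myd88+/+ pools, at 0.48 ± 0.20, with a limma p of 0.0404 (0.353 after adjustment). myd88+/+ replicate 3 lay among the mutant libraries, and leaving out 1 library at a time gave 0.33 to 0.69, with an unadjusted p under 0.05 in 11 of 15 alternatives. postnb, the second periostin gene and chosen after its values were seen, had 3310, 6337 and 4766 in myd88-/- pools, against 4594, 6522 and 13151 in myd88+/+ pools, at -0.66 ± 0.37, or -0.24 without myd88+/+ replicate 3. The ratio of postnb to postna was 0.25, 0.413 and 0.503 in myd88-/- pools, against 0.453, 0.539 and 1.06 in myd88+/+ pools and overlapped, as did the ratios of all 13 paralog pairs examined.

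Several matricellular genes were far higher in myd88-/- replicate 3 than elsewhere. smoc2, a calcium-binding matrix protein, had 76, 50 and 354 normalized reads in myd88-/- pools, against 83, 70 and 87 in myd88+/+ pools. thbs4a had 33, 19 and 697 in myd88-/- pools, against 189, 46 and 83 in myd88+/+ pools. tgfbi, an integrin-binding protein that TGF-beta induces in mammals and that was chosen after its values were seen, had 810, 696 and 3134 in myd88-/- pools, against 886, 1097 and 982 in myd88+/+ pools. Without this library the log2 fold change was -0.36 for smoc2, -1.80 for thbs4a and -0.39 for tgfbi, and with it 0.47, -0.22 and 0.30. The other 11 members of the group overlapped between genotypes and lay between -0.78 for thbs3b and 0.57 for thbs4b, and ecm2 among them overlaps cenpp. Without myd88-/- replicate 3, thbs3b lay at -1.14 and thbs4b at -0.31.

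**Figure D3:**
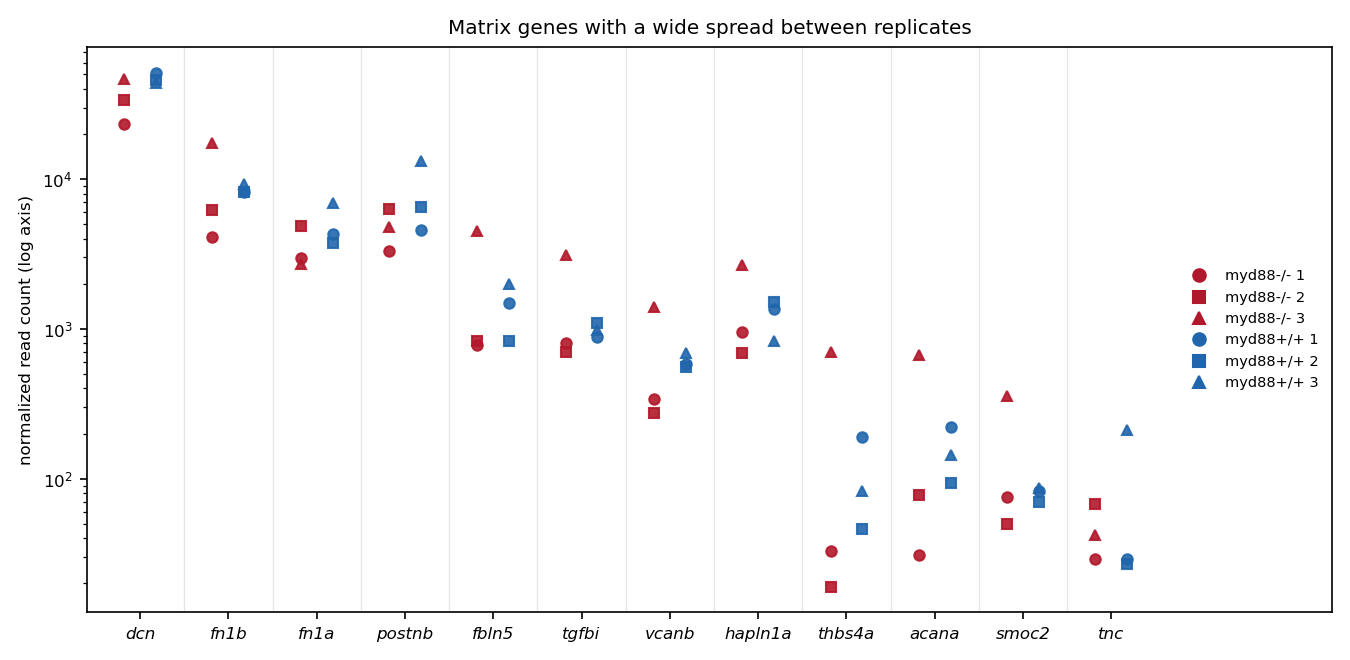
Normalized read counts (log axis) of 12 members with a wide spread between replicates, with myd88-/- libraries in red on the left and myd88+/+ libraries in blue on the right of each gene. The red triangle, myd88-/- replicate 3, is the highest point in fn1b, fbln5, tgfbi, vcanb, hapln1a, thbs4a, acana and smoc2, and the blue triangle, myd88+/+ replicate 3, is the highest in fn1a, postnb and tnc.

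Small leucine-rich proteoglycans, which bind collagen fibrils, numbered 4. dcn, decorin, had 23349, 33886 and 46830 normalized reads in myd88-/- pools, against 51293, 45907 and 43927 in myd88+/+ pools. The mean was 34688 ± 11761 in myd88-/- and 47042 ± 3812 in myd88+/+ cells (SD, n = 3 each), at -0.49 ± 0.25, with a limma p of 0.0768 (0.437 after adjustment). As the plot of the widely spread genes shows, replicates 1 and 2 of myd88-/- lay below all wild-type libraries and replicate 3 among them. Without replicate 3 the change was -0.74 ± 0.19, with an adjusted p of 0.105. When myd88-/- replicate 1 was left out instead, dcn lay at -0.24 (adjusted p of 0.821). bgnb, a biglycan, had 569, 610 and 709 in myd88-/- pools, against 703, 577 and 443 in myd88+/+ pools, at 0.15 ± 0.18. lum, lumican, lay at 0.37 ± 0.45 and the second biglycan gene bgna at 0.85 ± 1.05. Without myd88-/- replicate 3, lum lay at -0.17 and bgna at -0.02.

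Hyaluronan synthases, the link proteins that fix hyaluronan and the lecticans that bind it numbered 10, of which 7 were lower and 3 higher, with a median of -0.19. has1 had 5805, 4570 and 3556 normalized reads in myd88-/- pools, against 2510, 4405 and 4331 in myd88+/+ pools, at 0.33 ± 0.25. Leaving out myd88-/- replicate 1 gave 0.15 for has1, and leaving out myd88+/+ replicate 1 gave 0.06. has2, chosen after its values were seen, had 470, 560 and 858 in myd88-/- pools, against 795, 687 and 768 in myd88+/+ pools, at -0.30 ± 0.21, with -0.54 when myd88-/- replicate 3 was left out and -0.11 when replicate 1 was. The genotypes overlapped in both. hapln1b had 1979, 1203 and 1727 in myd88-/- pools, against 1637, 1742 and 2065 in myd88+/+ pools, at -0.17 ± 0.19. hapln1a, whose product is the link protein that epicardial cells deposit in the regenerating zebrafish heart, had 952, 687 and 2672 in myd88-/- pools, against 1353, 1511 and 829 in myd88+/+ pools. The change was 0.01 ± 0.44, and -0.56 when myd88-/- replicate 3 was left out.

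The lecticans showed the same split between mutant libraries. acana, an aggrecan, chosen after its values were seen, had 31, 78 and 669 normalized reads in myd88-/- pools, against 221, 93 and 143 in myd88+/+ pools, and acanb had 25, 32 and 231 in myd88-/- pools, against 66, 65 and 69 in myd88+/+ pools. vcanb, a versican, also chosen after its values were seen, had 338, 273 and 1410 in myd88-/- pools, against 585, 558 and 686 in myd88+/+ pools. In all 3 genes replicates 1 and 2 of myd88-/- lay below every wild-type library and replicate 3 above every one. vcana was low in every library, at 5, 22 and 31 in myd88-/- pools, against 34, 17 and 18 in myd88+/+ pools. The link protein gene hapln3 lay at -0.01 ± 0.18 and the synthase gene has3 at 0.14 ± 0.33.

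Several of these genes are neighbours on the genome. Less than 20 kb apart lie vcana and hapln1a on chromosome 5 (4.59 kb apart), vcanb and hapln1b on chromosome 10 (6.03 kb), hapln3 and acanb on chromosome 25 (8.0 kb) and lum and dcn on chromosome 4 (14.5 kb). In these 4 pairs the neighbours had their highest values in different libraries. The pairs given are not all those within this distance, so that nothing is drawn from them about neighbours in general.

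The remaining members encode matrilins, matrix Gla protein and the cell surface heparan sulfate proteoglycans. matn4, a matrilin, had 3279, 2447 and 6897 normalized reads in myd88-/- pools, against 2752, 2248 and 3690 in myd88+/+ pools, at 0.43 ± 0.34. mgp, an inhibitor of calcification, had 210, 339 and 1096 in myd88-/- pools, against 665, 771 and 421 in myd88+/+ pools, at -0.49 ± 0.51. In both genes myd88-/- replicate 3 was the highest library, and without it matn4 lay at -0.00212 and mgp at -1.17.

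Syndecans are transmembrane and glypicans lipid-anchored coreceptors for growth factors. sdc4 had 17260, 13922 and 18588 normalized reads in myd88-/- pools, against 17859, 16408 and 11685 in myd88+/+ pools, at 0.13 ± 0.20, and sdc2 had 2709, 2858 and 4228 in myd88-/- pools, against 3129, 2752 and 3288 in myd88+/+ pools, at 0.07 ± 0.18. Of the glypicans, chosen after their values were seen, gpc4 had 2930, 2527 and 3087 in myd88-/- pools, against 2318, 2168 and 2679 in myd88+/+ pools, at 0.25 ± 0.13, and gpc1b had 644, 1131 and 844 in myd88-/- pools, against 685, 658 and 587 in myd88+/+ pools, at 0.40 ± 0.20, or 0.20 without myd88-/- replicate 2. The genotypes overlapped in all of them, and gpc4 and gpc1b had an unadjusted limma p of 0.0913 and 0.0691. The other glypicans gpc6a and gpc5a lay at -0.28 ± 0.34 and -0.03 ± 0.23.

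**Figure D4:**
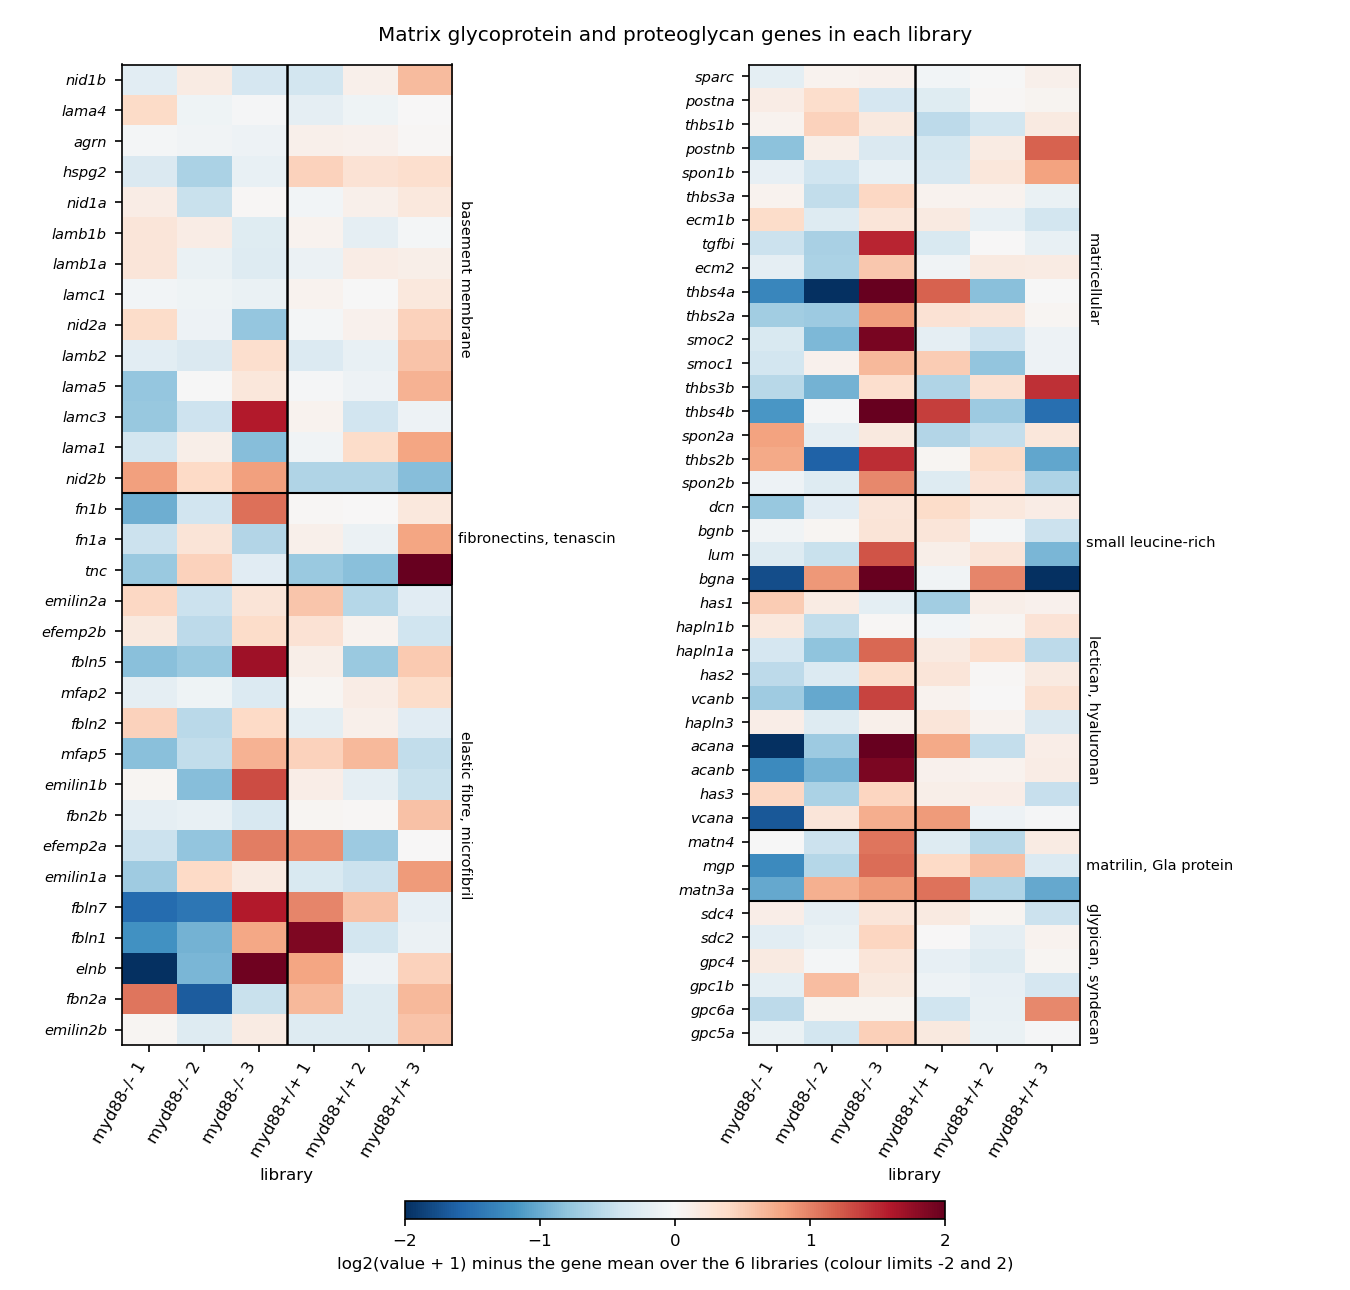
Heat map of 73 of the 74 members in each library as log2(value + 1) minus the mean of the gene over the 6 libraries, with roles divided by lines and myd88-/- libraries left of the vertical line. Red is above and blue below the mean of the gene, and red cells are frequent in myd88-/- replicate 3 among fibulin, thrombospondin, versican and aggrecan genes. Of the 15 basement membrane genes lamc3 has its highest value there, and nid2b ties there with myd88-/- replicate 1.

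The heat map by library shows that matrix genes varied between libraries of one genotype. The median spread within genotypes was 0.48 on the log2 scale, against 0.27 for all genes. Among genes with a mean value of at least 50 it was 0.43 for 61 members and 0.21 for 11577 genes. Of the 74 members 34, or 46.0%, had their highest value in myd88-/- replicate 3, against 19.6% of all genes, and 20, or 27.0%, in myd88+/+ replicate 3, against 14.6% of all genes. The shares were 12.2% in myd88-/- replicate 1, against 20.1% of all genes, and 4.05% in myd88-/- replicate 2, against 14.8%. More than 2-fold above each other library were 12 members in myd88-/- replicate 3, where 1.63% of all genes were, 3 in myd88+/+ replicate 3 (tnc, postnb and thbs3b), where 0.244% were, and 1 in myd88+/+ replicate 1 (fbln1), where 0.214% were.

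**Figure D5:**
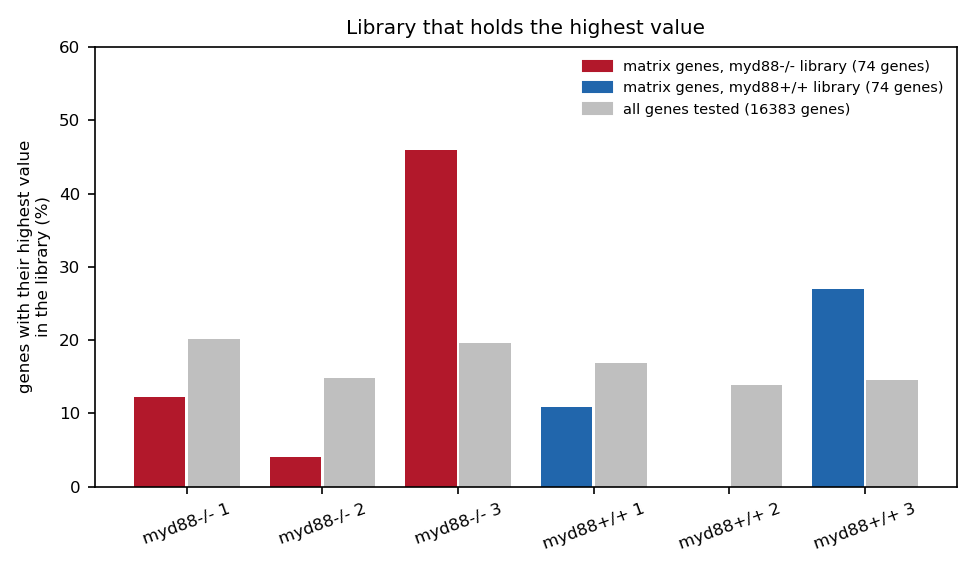
Share of genes (percent) that had their highest value in each library, for the 74 members (red, myd88-/-; blue, myd88+/+) and for all 16383 genes tested (grey). The bar of members reaches 46.0% in myd88-/- replicate 3 and 27.0% in myd88+/+ replicate 3, and no member was highest in myd88+/+ replicate 2.

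The plot of the highest library takes all roles together, and the counts by role are given here without a test. In myd88-/- replicate 3 lay the highest value of 1 of 15 basement membrane genes, 7 of 15 elastic fibre genes, 10 of 18 matricellular genes, 6 of 10 lectican and hyaluronan genes and 4 of 6 glypican and syndecan genes. The basement membrane gene nid2b, tied between replicates 1 and 3 of myd88-/-, was counted for replicate 1. The 12 genes above 2-fold were lamc3, fbln5, emilin1b, elnb, tgfbi, thbs4a, smoc2, lum, bgna, vcanb, acana and acanb. The summed level of the members was 1.40, 1.55 and 1.93% of all values in myd88-/- and 1.6, 1.58 and 1.79% in myd88+/+ libraries.

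Markers of other cell types moved with myd88-/- replicate 3 in part, where 19.6% of all genes were highest in that library. Of red blood cell and thrombocyte markers 7 of 11 were highest in it, with summed levels of 612 to 1365 per library. thpo made up 47.1 to 90.2% of this sum, which thus says little of the other markers. Without thpo and hbba1 it was 191, 288 and 496 in myd88-/- pools, against 170, 347 and 53 in myd88+/+ pools. The median of these markers was 1.16, or 0.59 without myd88-/- replicate 3 and 0.17 without myd88+/+ replicate 3. Without replicate 3 of either genotype it was -0.37. None of the 11 had an unadjusted limma p under 0.05 with all libraries. Of cardiomyocyte markers 1 of 16 was highest in myd88-/- replicate 3, of endothelial markers 4 of 27 and of neutrophil markers 1 of 3. Only 3 of 13 neutrophil markers were tested, and srgn made up 99.3 to 99.6% of their sum, so that they say little of neutrophils. Among epicardial and fibroblast markers 8 of 20 were highest in myd88-/- replicate 3, and the others were highest in other libraries. Of the 20 markers 12 were lower and 8 higher in myd88-/- cells, with a median of -0.19. Some of those highest in myd88-/- replicate 3 are given here, chosen after their values were seen. They were tbx18, at 156, 129 and 374 normalized reads in myd88-/- pools, against 136, 110 and 104 in myd88+/+ pools, tcf21, at 42, 19 and 111 in myd88-/- pools, against 76, 59 and 45 in myd88+/+ pools, and pdgfra, at 992, 763 and 1468 in myd88-/- pools, against 788, 670 and 1058 in myd88+/+ pools. By contrast tgm2b, chosen in the same way, had its lowest mutant share of the summed level in that library. It made up 9.06, 9.71 and 6.61% of the sum in myd88-/- pools, against 6.05, 5.65 and 8.18% in myd88+/+ pools. The genes named thus do not stand for the list of 20. Of the summed level of that list, 179387 in myd88-/- replicate 3, anxa2a and krt8 made up 63.0%, so that the sum says little of the other 18 markers, which summed to 66231, 62637 and 66450 in myd88-/- pools, against 75071, 64134 and 64983 in myd88+/+ pools. Among smooth muscle and pericyte markers 7 of 19 were highest in myd88-/- replicate 3, and 13 were lower and 6 higher in myd88-/- cells, with a median of -0.20. acta2, chosen after its values were seen, had 1019, 2109 and 8190 in myd88-/- pools, against 2511, 3266 and 5081 in myd88+/+ pools. The summed level of that list was 25612 to 33806 in myd88-/- and 27698 to 39078 in myd88+/+ libraries. Of this sum kcne4 made up 49.8 to 79.0%, with the lowest share in myd88-/- replicate 3. Without kcne4 and acta2 the sum was 4363, 6398 and 8783 in myd88-/- pools, against 6083, 6097 and 8757 in myd88+/+ pools. Macrophage markers, of which 23 of 25 were tested and 4 were highest in this library, summed to 11939 to 14602 in myd88-/- and 13403 to 17778 in myd88+/+ libraries. lgmn made up 45.9 to 69.8% of this sum. Without lgmn and mpeg1.2 the sum was 2612, 3947 and 5148 in myd88-/- pools, against 6495, 8180 and 4087 in myd88+/+ pools. Of these 23 markers 19 were lower in myd88-/- cells, where 48.9% of all genes were. At an unadjusted limma p under 0.05, 7 were lower and none higher, where 6.97 and 6.20% of all genes were. The median of the 23 was -0.42, or -0.60 without myd88-/- replicate 3. Other lists also had a negative median without that library, at -0.28 for epicardial and fibroblast, -0.37 for smooth muscle and pericyte and -0.12 for endothelial markers. The median of the members was -0.25 in that fit, against -0.09 with all libraries. None of the tested endothelial, fibroblast or smooth muscle markers was at 0 in any library. The part of these cell types in the values of the matrix genes was not tested.

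Without myd88-/- replicate 3 more of the matrix genes lay lower in the mutant. That library held the highest value of 34 members, so that leaving it out lowers the mutant mean of those genes by construction, and leaving out either of the other mutant libraries moved the count the other way, to 33 lower without myd88-/- replicate 1 and 31 lower without myd88-/- replicate 2. Of the 74 members 57, or 77.0%, were lower, against 49.0% of all genes, and the median was -0.25. At an unadjusted limma p under 0.05, 19 were lower and 2 higher, where 9.49 and 6.91% of all genes were. The criteria were met by 3 members, where 1.51% of all genes met them: hspg2 at -0.82, vcanb at -0.997 with an adjusted p of 0.0227, and fbln7 at -1.97 with an adjusted p of 0.0475. The median of the lectican and hyaluronan group was then -0.55, against -0.19 with all libraries, and that of the matricellular group -0.27, against 0.17, whereas that of the basement membrane group was -0.16, against -0.18. Leaving out replicate 3 of both genotypes, an alternative chosen after the data were seen, gave 17 lower and 1 higher members, where 10.7 and 8.80% of all genes were, and 2 members past the criteria, fbln7 and mfap5, where 1.18% of all genes were. In both genes this left out the highest myd88-/- and the lowest myd88+/+ library, which lowers them by construction. mfap5 had 326, 416 and 948 normalized reads in myd88-/- pools, against 800, 918 and 413 in myd88+/+ pools. With all libraries it lay at -0.41, with a limma adjusted p of 0.714.

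Genes that make, modify or bind the same matrix were taken from lists, whose counts stand beside the 6.97% lower and 6.20% higher among all genes. Of the hyaluronan turnover and receptor genes 15 of 23 were tested, with 9 lower and 6 higher and a median of -0.11. At an unadjusted limma p under 0.05, 3 were lower and 0 higher. The criteria, met by 0.702% of all genes, were met by 1 of the 15. This was hyal2a, a hyaluronidase gene, which cuts hyaluronan (chromosome 6, 54093057 to 54111928), with 446, 416 and 458 normalized reads in myd88-/- pools, against 1172, 725 and 841 in myd88+/+ pools. Every mutant library lay below every wild-type library, at 440.0 ± 21.6 in myd88-/- and 913 ± 232 in myd88+/+ cells (SD, n = 3 each). The log2 fold change was -1.02 ± 0.18 with an adjusted p of 0.0448, and the adjusted p ran from 0.0312 to 0.181 over the alternatives, being over 0.05 in 9 of 15. Without myd88-/- replicate 3 it was -1.05, with an adjusted p of 0.0423. The others with an unadjusted p under 0.05 were the neighbouring hyaluronidase gene hyal1, at 290, 273 and 339 in myd88-/- pools, against 600, 436 and 423 in myd88+/+ pools, with an adjusted p of 0.150, and cemip, a hyaluronan-degrading protein in mammals, at 145, 103 and 182 in myd88-/- pools, against 189, 237 and 210 in myd88+/+ pools, with an adjusted p of 0.307. In both genes the genotypes did not overlap. The genes named do not stand for the list, and the paralog hyal2b did not reach an unadjusted p under 0.05. The list summed to 11801, 12051 and 21417 in myd88-/- pools, against 18706, 13998 and 14829 in myd88+/+ pools. Of these sums hyal2b made up 35.6, 28.3 and 15.6% in myd88-/- pools, against 21.8, 29 and 27.8% in myd88+/+ pools. The hyaluronan synthases has1, has2 and has3 had log2 fold changes of 0.33, -0.30 and 0.14, with an adjusted p of 0.588 or more.

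Of the genes for glycosaminoglycan synthesis, the enzymes that build the sugar chains of proteoglycans, 52 of 66 were tested, with 3 lower and 5 higher at an unadjusted limma p under 0.05 and none past the criteria. hs6st1b, a heparan sulfate 6-O-sulfotransferase, had 1085, 1231 and 899 normalized reads in myd88-/- pools, against 627, 600 and 741 in myd88+/+ pools, at 0.70 ± 0.15 and an adjusted p of 0.0984. It met the criteria without myd88-/- replicate 3, at 0.82 and an adjusted p of 0.0325, where 1.51% of all genes met them. ext2, a heparan sulfate polymerase subunit, had 2477, 2355 and 2126 in myd88-/- pools, against 1541, 1841 and 1875 in myd88+/+ pools, at 0.41 ± 0.13 and an adjusted p of 0.225. chst2b, a carbohydrate sulfotransferase, had 15, 27 and 35 in myd88-/- pools, against 133, 53 and 295 in myd88+/+ pools, at -2.35 ± 0.56 and an adjusted p of 0.132. The genotypes did not overlap in these 3 genes, which were chosen after their values were seen. hs6st1b and chst2b lie on chromosome 24 at 7.59 and 14.4 Mb from myd88, so that linkage and the mutation cannot be told apart for them.

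The other lists had no gene past the criteria with all libraries. Of 87 other matrix glycoprotein genes 49 were tested, with 4 lower and 2 higher at an unadjusted limma p under 0.05 and a median of -0.05, and 27 of them were highest in myd88-/- replicate 3. Leaving that library out lowers by construction the mutant mean of genes in which it is the highest mutant library, as in igfbp6b. In that fit the median was -0.35 and igfbp6b met the criteria, at -2.12 and an adjusted p of 0.0175, where 1.51% of all genes met them. This insulin-like growth factor binding protein gene, chosen after its values were seen, had 950, 749 and 2318 normalized reads in myd88-/- pools, against 6384, 2774 and 2813 in myd88+/+ pools, without overlap, at -1.64 ± 0.44 and an adjusted p of 0.163 with all libraries. Of 36 other proteoglycan genes 16 were tested, with none at an unadjusted p under 0.05 in either direction, a median of -0.09 and 8 highest in that library. Without myd88-/- replicate 3, which was also the highest library of prelp, the median was -0.35. In that fit prelp, a small leucine-rich proteoglycan gene also chosen after its values were seen, met the criteria at -0.91 and an adjusted p of 0.0169, where 1.51% of all genes met them. It had 1722, 2100 and 7439 in myd88-/- pools, against 3267, 3882 and 3612 in myd88+/+ pools, and with all libraries lay at -0.26 ± 0.46. Of 16 basement membrane receptor genes other than integrins 15 were tested, with 0 lower and 1 higher: dag1, dystroglycan, a laminin and perlecan receptor, at 1079, 1146 and 1559 normalized reads in myd88-/- pools, against 960, 923 and 1015 in myd88+/+ pools, with an adjusted p of 0.359.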

How the data were processed

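Per the labels and the methods of the study, the authors trimmed reads with Trimmomatic 0.39, aligned them to danRer11 with STAR 2.7.10a, removed duplicate, multimapping, ribosomal and mitochondrial reads with Picard 3.0.0, counted reads on exons with featureCounts 2.0.4 and normalized the counts with DESeq2 1.36.0. The deposited values are a score, taken here to be counts that the authors divided by size factors and rounded to whole numbers. Near-identical paralogs lose reads when multimapping reads are removed, and duplicate removal limits the highest values. Reads on more than 1 gene were left out, and 5 members overlap another listed gene (fn1b, fbln5, emilin1a, fbn2a and ecm2).

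Genotypes came from the labels. limma 3.58.1 in R 4.3.3 (lmFit, and eBayes with an intensity trend) was fitted on log2(value + 1) over the 16383 genes with a mean value above 5, with Benjamini-Hochberg adjustment over all of them. On this scale the change of low genes is understated. The criteria were an adjusted p under 0.05 and a fold over 1.5. The script was tested on simulated data. Genes were named by rule: those past the criteria or at an unadjusted p under 0.05, the 2 with the highest mean in each role, 7 genes of interest in cardiac matrix, the 3 with 1 library farthest above the others, and list genes past the criteria. Others are stated as chosen after their values were seen. A tie for the highest library (1 member, nid2b) was given to the first library. Members and lists were chosen with earlier results of these data known. Alternatives were pseudocounts of 0.5 and 8, no filter, a mean above 50, equal totals, other variance models, a replicate block and leaving out libraries. The values of 1 member are not reported here, and it is counted but not drawn or named.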

Additional observations from a re-analysis of the deposited data

How the results depend on the processing

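With 3 pools per genotype and a wide spread between them, only large changes of most matrix genes could have passed the criteria. None of the 74 members was past the criteria under any alternative that kept all libraries. Leaving out 1 library at a time gave 0 to 3 members past the criteria, 1 to 19 lower and 1 to 7 higher at an unadjusted limma p under 0.05, and a median of -0.25 to 0.08. The highest counts came without myd88-/- replicate 3 (19 lower) and without myd88-/- replicate 2 (7 higher), and without myd88+/+ replicate 1 and replicate 3 there were 8 and 1 lower. Members lower numbered 2 with equal totals and 2 without the intensity trend, and members higher numbered 4 with equal totals, 1 without the trend and 1 with a mean above 50 (against 4 lower and 2 higher in the text). Without replicate 3 of either genotype, added after seeing the data, there were 2 past the criteria, 17 lower and 1 higher. The causes were not tested.

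Correlations of deviations from the genotype mean between same-numbered libraries were -0.12, 0.13 and -0.14, so that the numbers were not taken as pairs. With the replicate block 0 members were past the criteria, 3 were lower (hspg2, mfap2 and postnb) and 2 higher, with a median of -0.09, and hyal2a had an adjusted p of 0.0909.

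Signs turned in some of the named members, none of which was past the criteria with all libraries. With equal totals the sign turned for sparc, at 0.0325. Without replicate 3 of either genotype the values were 0.11 for nid1b, -0.00161 for emilin2a, -0.34 for efemp2b, -0.11 for bgnb, -0.14 for sdc4, -0.0767 for sdc2, -0.82 for hapln1a, 0.65 for tnc and -0.30 for smoc2. Leaving out 1 library at a time gave log2 fold changes of -0.50 to 0.00611 for nid1b, -0.76 to 0.28 for fn1b, -0.0914 to 0.48 for emilin2a, -0.16 to 0.30 for efemp2b, -0.0792 to 0.0632 for sparc and -0.0388 to 0.31 for postna. The ranges were -0.0233 to 0.31 for bgnb, -0.33 to 0.0339 for hapln1b, -0.00212 to 0.75 for matn4, -1.17 to 0.0234 for mgp, -0.0558 to 0.25 for sdc4 and -0.13 to 0.19 for sdc2. They were -0.56 to 0.42 for hapln1a, -0.96 to 0.25 for vcana, -0.84 to 0.62 for tnc, -0.36 to 1.04 for smoc2, -1.80 to 0.76 for thbs4a and -1.21 to 0.37 for acanb. In all, 37 of 433 values of single genes turned sign and 386 were counted as the same. The alternatives with other filters, other variance models or the replicate block leave the log2 fold change of a gene as it was. They could not turn a sign, so that the 386 values are no measure of stability.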
